A study of Mus musculus with 30 samples.

Results

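The translation machinery of the mouse kidney was followed through 80 probe sets for 54 genes, out of 13179 probe sets, 6137 genes with a single symbol, on a pair of array types. They were chosen by name. A probe set counted if its annotated symbol, brought up to date, was that of an initiation, elongation or termination factor, a cytoplasmic poly(A)-binding protein or an aminoacyl-tRNA synthetase named by a single letter before "ars", which leaves out the cytosolic synthetase genes Eprs and Farsb. By role, 43 probe sets belonged to 30 initiation factor genes, 12 to 7 elongation factor genes (Eif5a was placed here), 5 to 2 termination factor genes, 5 to 3 poly(A)-binding protein genes and 15 to 12 synthetase genes. Another 7 probe sets matched the letters of these names but code for kinases or binding proteins that act on the factors, and were kept apart.

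The samples were total RNA of kidneys of C57BL/6 mice, an inbred laboratory strain. Controls were 5 months old (young) or 30 months old (old), and a further group of 30 months had been fed a calorie-restricted diet. Each of these 3 groups has 5 title numbers, and every number was hybridised to both array types, which gave 30 samples. Per the labels, ageing is read from the old and young controls, and the diet from the restricted mice and the old controls. Restricted against young mice is another contrast of the same fit, which the labels do not name. The labels do not give the size of the restriction or the sex of the mice, and do not say that the numbers were separate animals, so a p-value measures the spread between these samples, which are called animals here. All 3 comparisons share groups: the first and the second share the old controls.

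Protein synthesis starts when initiation factors bring the initiator tRNA and the small ribosomal subunit to the cap of an mRNA. eIF2 carries the initiator tRNA, eIF2B recharges eIF2 with GTP, the many-subunit eIF3 holds the small subunit, and the eIF4 group binds the cap and unwinds the leader. Elongation factors then deliver charged tRNAs (eEF1A, recharged by the eEF1B subunits) and move the ribosome along (eEF2), and release factors end the chain. Aminoacyl-tRNA synthetases load each tRNA with its amino acid. In kidney these are housekeeping genes, and calorie restriction is known to act on the kinase pathways that regulate several of the factors, mostly through phosphorylation of the proteins, which mRNA arrays do not read.

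No member of the translation machinery passed the test in any comparison. Of 43 tested probe sets (32 genes), 0 differed between old and young controls, where limma called 3.33% of the 4421 probe sets tested at an adjusted p under 0.05. The diet comparison called 0 of 43 members beside 2.51% of 4506 probe sets, and restricted against young mice called 0 of 43 beside 3.78% of 4421. At an unadjusted p under 0.05 the members numbered 4 of 43 with age (9.3%), beside 15.1% of all tested probe sets. The diet gave 7 of 43 (16.3%) beside 14.7%, and restricted against young mice 4 of 43 (9.3%) beside 16.7%. The lowest adjusted p among members was 0.223 with age, 0.219 with the diet and 0.113 for restricted against young mice.

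The precision of these comparisons was a standard error of 0.11 to 0.48 in log2 units, with a median of 0.18, close to the 0.19 of all tested probe sets. For 37 of 43 members the 95% interval of the age difference lay within 2-fold either way, as it did for 3804 of 4421 of all tested probe sets. With the diet the same held for 39 of 43 members and 3790 of 4506 of all. Within 1.5-fold lay the intervals of 23 members with age and 22 with the diet. Fitted differences ran from -0.53 to 0.51 log2 units with age and from -0.66 to 0.82 with the diet. The 5 values of each group were separate for 0 of 43 members between old and young controls, where this held for 5.23% of all tested probe sets. Between restricted and old mice it was 0 of 43 beside 4.11%. Between restricted and young mice it was 1 of 43, a probe set of Etf1, beside 6.08%.

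**Figure D1:**
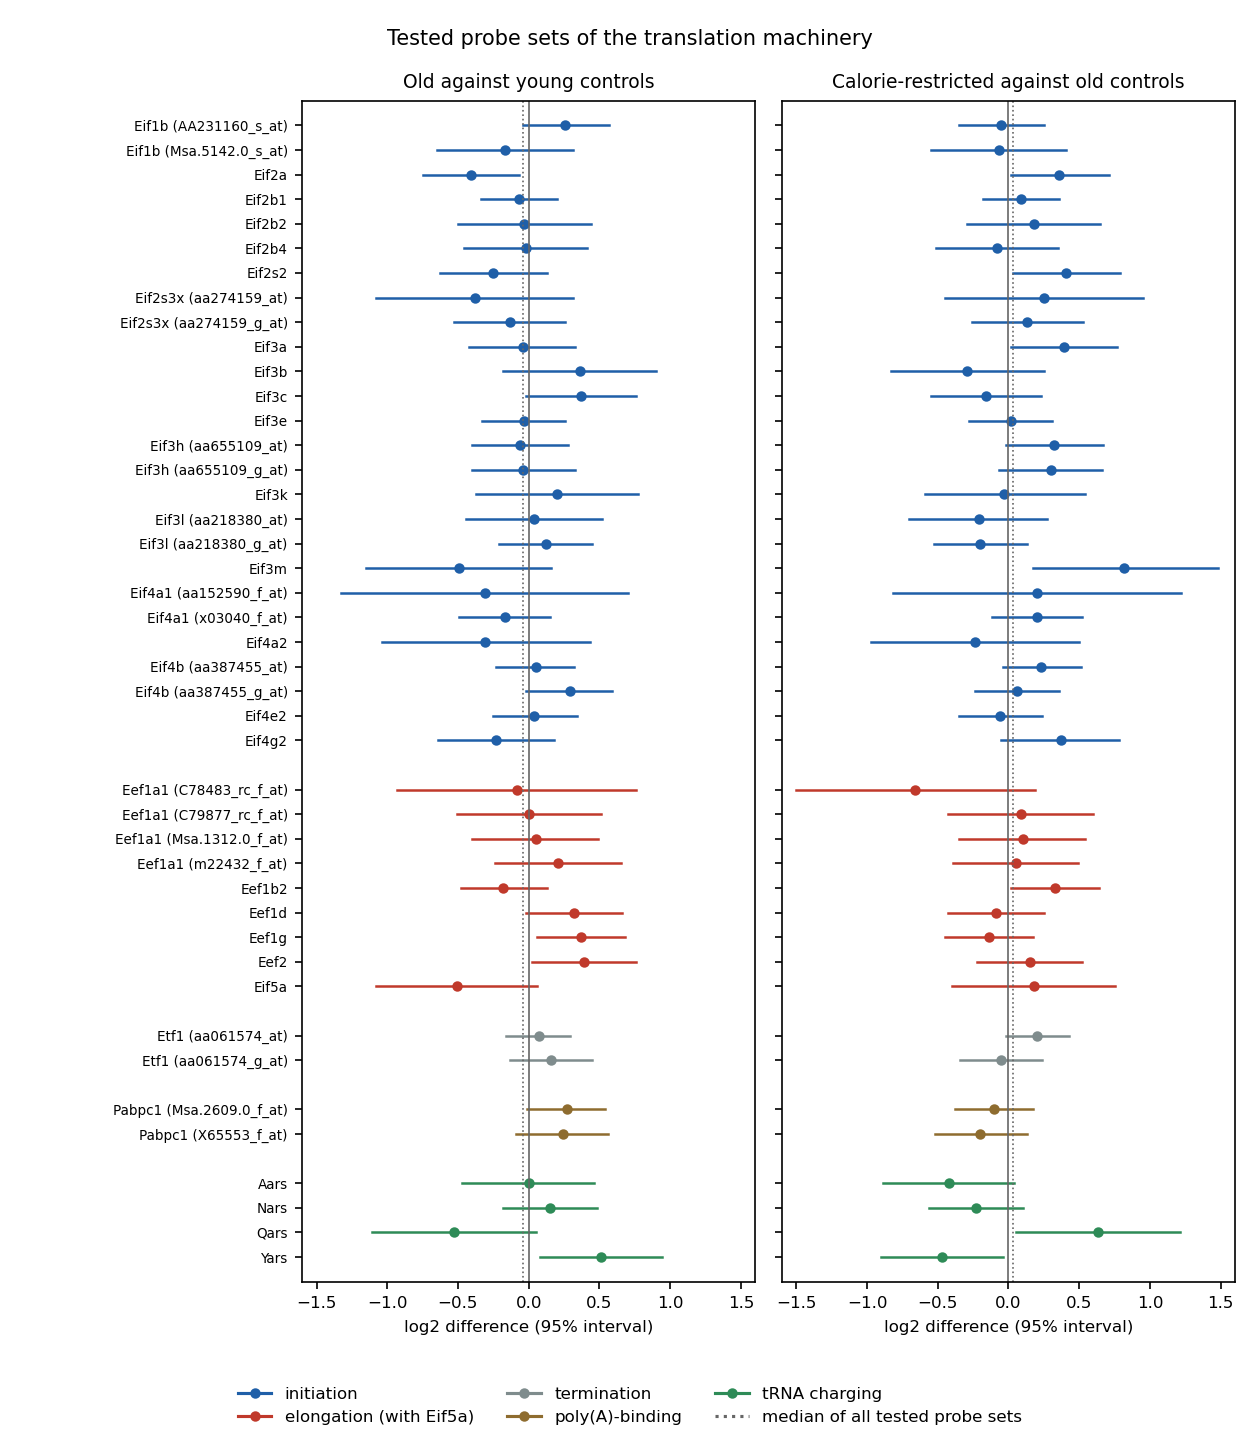
Fitted log2 difference (point) and its 95% interval (line) of the 43 tested member probe sets, old minus young controls on the left and calorie-restricted minus old controls on the right, n = 5 per group, coloured by role. The dotted line is the median of all tested probe sets; points lie between -0.53 and 0.51 on the left and between -0.66 and 0.82 on the right, and no member passed the adjusted threshold.

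Initiation, elongation and tRNA charging were compared by the median of their fitted log2 differences, as a description with no test. With age the medians were -0.04 for 26 initiation probe sets, 0.05 for 9 elongation probe sets and 0.07 for 4 charging probe sets, beside -0.04 for all tested probe sets. With the diet they were 0.11, 0.09 and -0.33 in the same order, beside 0.03 for all. Restricted against young mice gave 0.05, 0.15 and -0.02, beside -0.01 for all. The charging median with the diet is that of only 4 genes, of which 3 were lower and 1 higher in restricted mice. It came to -0.04 in title numbers 4 and 5 alone, to 0.01 with the floor under low values doubled and to 0.00 with no filter on low values. The elongation median with age was -0.14 in numbers 1 to 3, 0.23 in numbers 4 and 5 and 0.24 after quantile normalization; with the diet it was -0.08 without old control 1. By count, 9 of 26 initiation probe sets had a difference above 0 with age and 16 of 26 with the diet, and 5 and 6 of 9 elongation probe sets. Over all tested probe sets this held for 1980 of 4421 with age and 2460 of 4506 with the diet.

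Medians of a class within single animals show how these figures arise. Each is the median log2 deviation of the class's probe sets from their own mean over all 15 animals. Initiation medians ran from -0.19 to 0.14 in young controls, from -0.06 to 0.10 in old controls and from 0.06 to 0.12 in restricted mice, with a pooled SD within groups of 0.0826. The restricted mice lay close together inside the range of the young ones. Elongation medians ran from -0.27 to 0.10, from -0.15 to 0.31 and from -0.04 to 0.24 in the same order of groups, with a pooled SD of 0.158. Charging medians ran from -0.22 to 0.24, from -0.15 to 0.39 and from -0.29 to 0.07, with a pooled SD of 0.193. All 3 groups overlapped in each class.

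**Figure D2:**
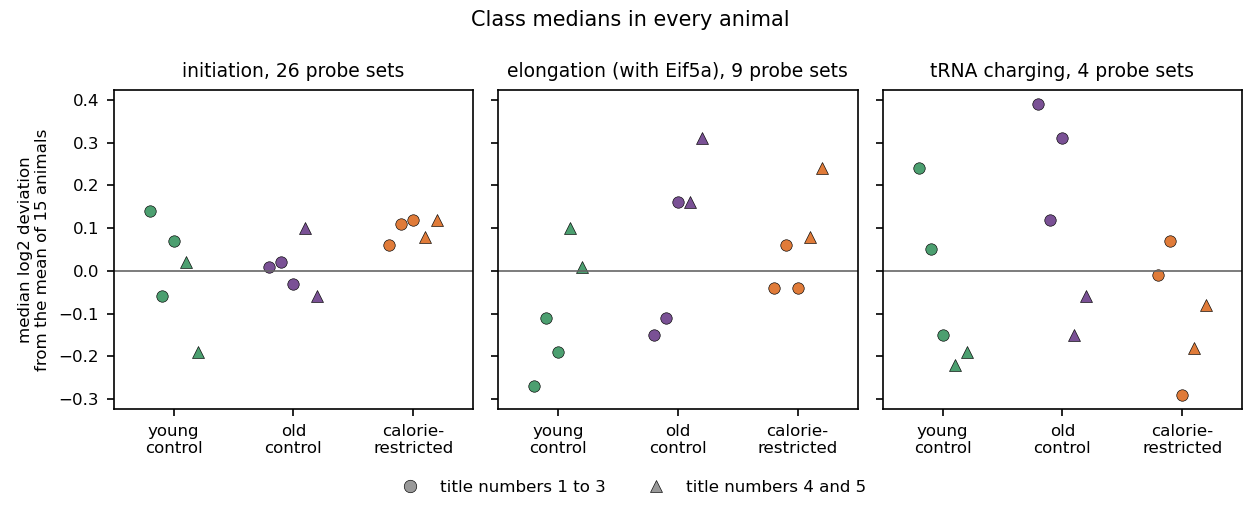
Median log2 deviation of the probe sets of a class from their mean over all 15 animals, one point per animal (5 per group; circles are title numbers 1 to 3, triangles 4 and 5), for 26 initiation, 9 elongation and 4 charging probe sets. The groups overlap in every panel; in the elongation panel the triangles lie at the upper end of each group, from 0.01 to 0.31.

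The 15 animals also fell apart by title number. Over all tested probe sets the first component of the deviations from the group means, 37.3% of their variance, separated numbers 1 to 3 from numbers 4 and 5; the labels do not say what the numbers are. Of the members, 7 of 43 (16.3%) had numbers 4 and 5 wholly above or wholly below numbers 1 to 3 in the same direction in all 3 groups, beside 11.3% of the 4421 probe sets. They were 3 of the 4 probe sets of Eef1a1, and 1 each of Eef1d, Eif2s2, Eif4a1 and Eif4b. By class the members were uneven: 4 of 9 elongation probe sets (44.4%), 3 of 26 initiation probe sets (11.5%) and 0 of 4 charging probe sets. The 4 elongation probe sets came only from Eef1a1 and Eef1d, and those of Eef1a1 differed in direction, so this share counts probe sets and not genes. Differences within the sets, numbers 1 to 3 first, are given beside the main members below. Title number and group were balanced, since each group holds every number.

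Of the initiation factors, eIF3 gave the largest difference with the diet. Eif3m, a subunit of eIF3, had intensities of 1853, 1922, 3425, 1185 and 1068 in young controls, 1754, 1228, 879, 821 and -146 in old controls, and 2215, 2294, 4098, 1855 and 1302 in restricted mice. Intensities are the deposited values after scaling, in the order of title numbers 1 to 5. Some were deposited as negative values, and the sources used here do not give the background step behind them. Old controls were low, with 2 of 5 above the floor of 1103 that was set under low values, and the groups overlapped. The fitted difference was 0.82 ± 0.31 log2 units (SE, n = 5 per group) with the diet, and it did not pass (adjusted p = 0.219, limma). It was 1.04 in numbers 1 to 3 and 0.49 in numbers 4 and 5. With age Eif3m gave -0.49 ± 0.31 (adjusted p = 0.506), and restricted against young mice gave 0.33 ± 0.31. A fit that also held a term for these number sets gave the diet difference an adjusted p of 0.0486, the lowest among 29 alternatives, whose highest was 0.658. That fit called 5.02% of all probe sets. The same-target probe set aa145203_at was above the floor on 0 of 15 arrays and was not tested.

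Over 10 tested probe sets of 8 eIF3 genes the median was 0.00 with age and -0.00 with the diet, with 5 above 0 and 5 below in both. Eif3a, the largest eIF3 subunit, had 0.39 ± 0.18 with the diet (adjusted p = 0.315) and -0.04 ± 0.18 with age. Its intensities were 1048, 853, 1386, 836 and 964 in old controls and 2204, 1752, 1693, 666 and 1031 in restricted mice, so numbers 4 and 5 were at the floor in both groups and the difference of 0.65 came from numbers 1 to 3. Eif3c, a core subunit, was the other way: 0.37 ± 0.18 with age (adjusted p = 0.363) and -0.16 ± 0.18 with the diet, or 0.27 and 0.52 within the sets with age. Both probe sets of Eif3h, which belong to 1 target, gave 0.32 and 0.30 with the diet and -0.06 and -0.04 with age. Eif3b gave 0.36 with age and -0.29 with the diet, and Eif3e, Eif3k and Eif3l lay between -0.21 and 0.20 in both.

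None of the probe sets of eIF2, eIF2B and Eif2a passed the threshold in any comparison. Eif2a, a separate factor that can also bring initiator tRNA to the ribosome, had 2819, 2764, 2780, 2388 and 2128 in young controls, 2579, 1435, 1659, 2493 and 1744 in old controls, and 2478, 2520, 2234, 2646 and 2535 in restricted mice. Of the old controls, 3 lay below every young and restricted animal and 2 lay among them. The difference was -0.41 ± 0.16 with age (adjusted p = 0.225) and 0.36 ± 0.16 with the diet (adjusted p = 0.312). With age it was -0.61 in numbers 1 to 3 and -0.11 in numbers 4 and 5; with the diet it was 0.39 and 0.31.

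Eif2s2, the beta subunit of eIF2, had 2375, 2481, 2645, 1894 and 1826 in young controls, 2528, 2031, 1689, 1553 and 1673 in old controls and 2546, 2943, 3019, 2337 and 1741 in restricted mice. Its difference was -0.25 ± 0.18 with age (adjusted p = 0.568) and 0.41 ± 0.18 with the diet (adjusted p = 0.306), 0.46 and 0.32 within the number sets. The gamma subunit, Eif2s3x, gave -0.13 and -0.38 with age and 0.13 and 0.25 with the diet over a pair of probe sets of 1 target. One of these, aa274159_at, read 47 in young control 4 against 2867 to 4263 in the other young controls. The 3 measured subunits of the exchange factor eIF2B, Eif2b1, Eif2b2 and Eif2b4, lay between -0.07 and -0.02 with age and between -0.08 and 0.18 with the diet.

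Eif1b, a close relative of the factor that helps the scanning ribosome find the start codon, had a pair of probe sets of opposite sign with age. The brighter gave 0.26 ± 0.14 (adjusted p = 0.414) and the other -0.17 ± 0.23 (adjusted p = 0.79), and with the diet they gave -0.05 ± 0.14 and -0.07 ± 0.23.

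Among the cap-binding and unwinding factors, Eif4g2, a relative of the eIF4G scaffold that lacks the cap-binding part, had 5090, 3735, 4370, 4477 and 3474 in young controls, 3245, 3467, 2905, 4692 and 3818 in old controls, and 5680, 4523, 5769, 2804 and 5029 in restricted mice. Restricted animal 4 was the lowest of all 15, and the others ran from 4523 to 5769, where old controls ran from 2905 to 4692. The diet difference was 0.37 ± 0.19 (adjusted p = 0.416), with 0.73 and -0.17 in the lower and upper number set. With age it was -0.23 ± 0.19 (adjusted p = 0.652). Eif4b, which helps the helicase eIF4A, gave 0.05 and 0.29 with age and 0.23 and 0.06 with the diet over its probe sets, and 0.28 and 0.34 for restricted against young mice (adjusted p = 0.291 and 0.229). Within the sets its brighter probe set gave 0.02 and 0.09 with age and 0.25 and 0.21 with the diet. Eif4e2, a relative of the cap-binding protein, gave 0.04 ± 0.14 and -0.06 ± 0.14 with age and diet. Eif4a2 gave -0.31 ± 0.35 and -0.24 ± 0.35. The cap-binding protein Eif4e itself was above the floor on 0 of 15 arrays.

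Eif4a1, the main eIF4A helicase, had a pair of probe sets that read the animals differently. x03040_f_at gave 10383, 13309, 9868, 11807 and 10636 in young controls, 10593, 7029, 10514, 11438 and 10493 in old controls and 9023, 12945, 11794, 11727 and 11607 in restricted mice, with differences of -0.17 ± 0.15 with age (adjusted p = 0.658) and 0.20 ± 0.15 with the diet (adjusted p = 0.581). aa152590_f_at gave 5442, 6285, 7893, 17417 and 16060, then 5888, 4011, 3932, 16885 and 16237, then 7436, 5879, 5504, 17054 and 12416 in the same order of groups. In each group its numbers 4 and 5 stood far above the rest, by a mean of 1.49 log2 units, and its standard error of 0.48 was the largest of the members. Its age difference was -0.31 ± 0.48, or -0.51 and -0.01 within the sets, and its diet difference 0.20 ± 0.48, or 0.46 and -0.19. The letter f in a probe set's name marks probes that can match several members of a gene family, so copies of a gene are not told apart. Of the 43 tested member probe sets 11 carry it, those of Eif4a1, Eef1a1, Eef1b2, Eef1g, Eef2 and Pabpc1.

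Of the members, 2 elongation factors had the lowest adjusted p in a comparison with young controls: Eef1g with age and Eef2 for restricted mice. Eef2, the translocase that moves the ribosome along the mRNA, had 19938, 17605, 18210, 28392 and 24516 in young controls, 24974, 29329, 20708, 29525 and 38133 in old controls and 25644, 29729, 35451, 33528 and 31346 in restricted mice. Every restricted mouse was above 4 of the 5 young ones. Differences were 0.39 ± 0.18 with age (adjusted p = 0.3), 0.15 ± 0.18 with the diet (adjusted p = 0.757) and 0.53 ± 0.18 for restricted against young mice (adjusted p = 0.113). The last was 0.69 in the lower number set and 0.30 in the upper. The fit holding a term for the number sets gave it an adjusted p of 0.0259, the lowest of 29 alternatives, whose highest was 0.556, and called 7.65% of all probe sets. A second probe set of Eef2, M76131_rc_at, was above the floor on 2 of 15 arrays and was not tested.

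Eef1g, the gamma subunit of the factor that recharges eEF1A, had 2794, 3088, 3182, 4250 and 3928 in young controls, 4121, 4444, 4634, 4349 and 4530 in old controls and 3655, 3375, 3816, 4055 and 5357 in restricted mice. The old controls were the most even group, and only old control 1 lay below the highest young animal. Its differences were 0.37 ± 0.15 with age (adjusted p = 0.223), 0.54 and 0.12 within the number sets, and -0.14 ± 0.15 with the diet (adjusted p = 0.705). Eef1d, the delta subunit, gave 0.32 ± 0.16 with age (adjusted p = 0.375), 0.27 and 0.39 within the sets, and -0.09 ± 0.16 with the diet. The beta subunit Eef1b2 went the other way, with -0.18 ± 0.14 with age (adjusted p = 0.636) and 0.33 ± 0.14 with the diet (adjusted p = 0.304). The 3 subunits of this complex therefore had fitted differences of opposite sign in both comparisons, and no pair of them was tested against each other. The probe sets of Eef1g and Eef1b2 carry the letter f, so copies of these genes are not told apart.

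**Figure D3:**
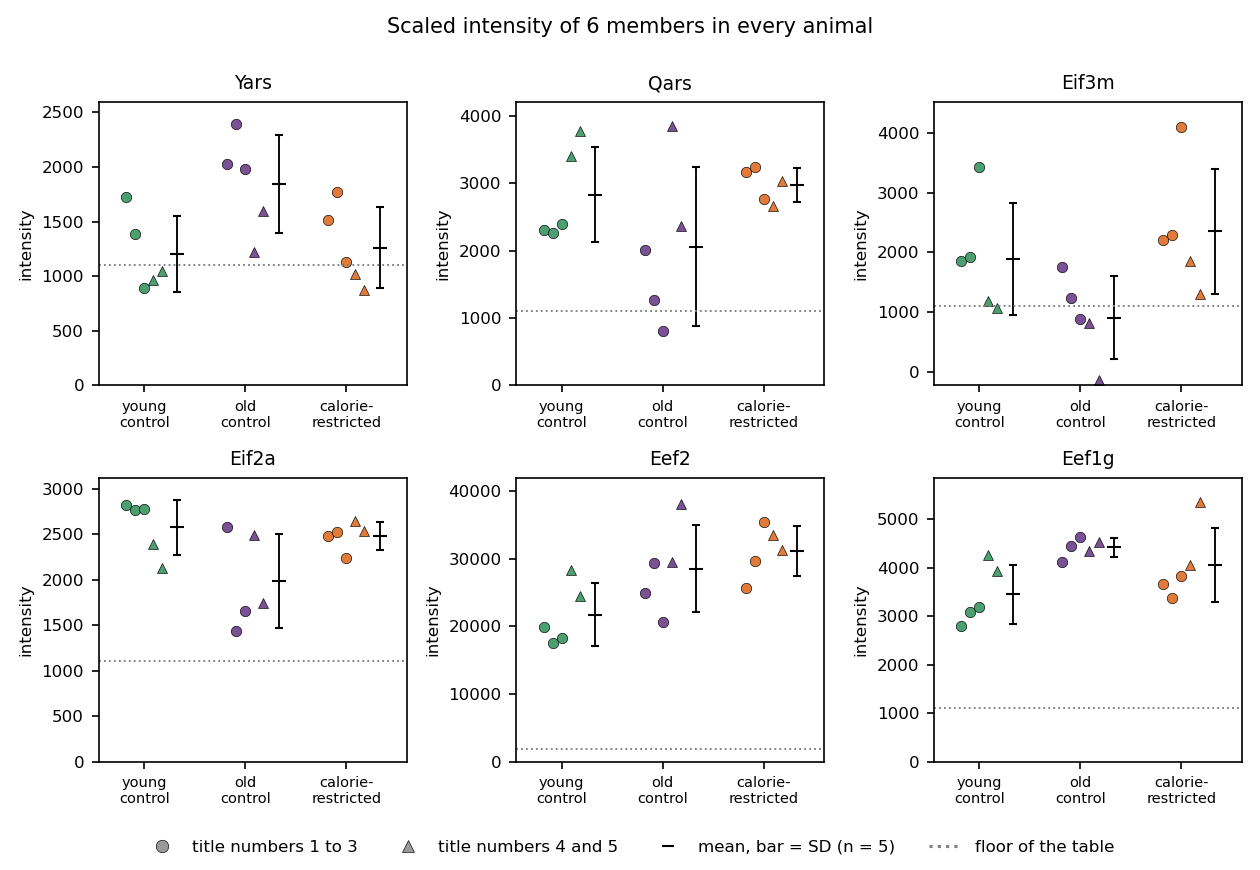
Scaled intensity of Yars, Qars, Eif3m, Eif2a, Eef2 and Eef1g in each of 15 animals (circles are title numbers 1 to 3, triangles 4 and 5; black bars are the mean and SD of 5; the dotted line is the floor of the array type). Groups overlap in every panel; old controls are low in Eif3m (-146 to 1754), even in Eef1g (4121 to 4634) and spread in Qars (801 to 3853).

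Eif5a, the hypusine-containing factor that helps the ribosome through difficult stretches, had 6550, 6078, 7105, 9045 and 9276 in young controls, 3891, 3774, 8246, 4510 and 7400 in old controls and 6809, 7141, 7619, 6537 and 3072 in restricted mice. Of the old controls 3 lay below every young animal and 2 among them. The difference was -0.51 ± 0.27 with age (adjusted p = 0.406) and 0.18 ± 0.27 with the diet (adjusted p = 0.821), where the sets gave 0.54 and -0.37. Restricted animal 5 was low, at 3072, where the others of its group had 6537 to 7619.

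Eef1a1, the factor that brings charged tRNAs to the ribosome, was read by 4 probe sets, all with the letter f, and they disagreed in sign in every comparison. The brightest had 94166, 105681, 100094, 126091 and 122436 in young controls, 90980, 83841, 97619, 155079 and 156577 in old controls and 90724, 104679, 107997, 161801 and 151569 in restricted mice. Its differences were 0.05 ± 0.21 with age (adjusted p = 0.945) and 0.10 ± 0.21 with the diet (adjusted p = 0.878); within the sets the age difference was -0.14 and 0.33, of opposite sign. m22432_f_at gave 0.21 and 0.05, and C79877_rc_f_at gave -0.00 and 0.09.

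The fourth, C78483_rc_f_at, ran against the others. It had 6904, 7225, 4284, 1920 and 2536 in young controls, 5491, 5815, 3771, 2590 and 2495 in old controls and 3418, 3210, 3138, 1164 and 1988 in restricted mice. Numbers 4 and 5 were low in each group, with a mean of -1.16 log2 units against numbers 1 to 3, where the brightest probe set had 0.58 and m22432_f_at 0.54. Among numbers 1 to 3 the restricted mice, at 3138 to 3418, lay below the other groups, at 3771 to 7225; among numbers 4 and 5 the groups overlapped. The difference was -0.66 ± 0.40 with the diet (adjusted p = 0.484) and -0.74 ± 0.40 for restricted against young mice (adjusted p = 0.375). The fit holding a term for the number sets gave the latter an adjusted p of 0.0252, within a range of 0.0169 to 1 over 30 alternatives, and for the diet that range was 0.039 to 1. Eef1a2, the copy known from muscle and brain, was above the floor on 0 of 15 arrays.

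**Figure D4:**
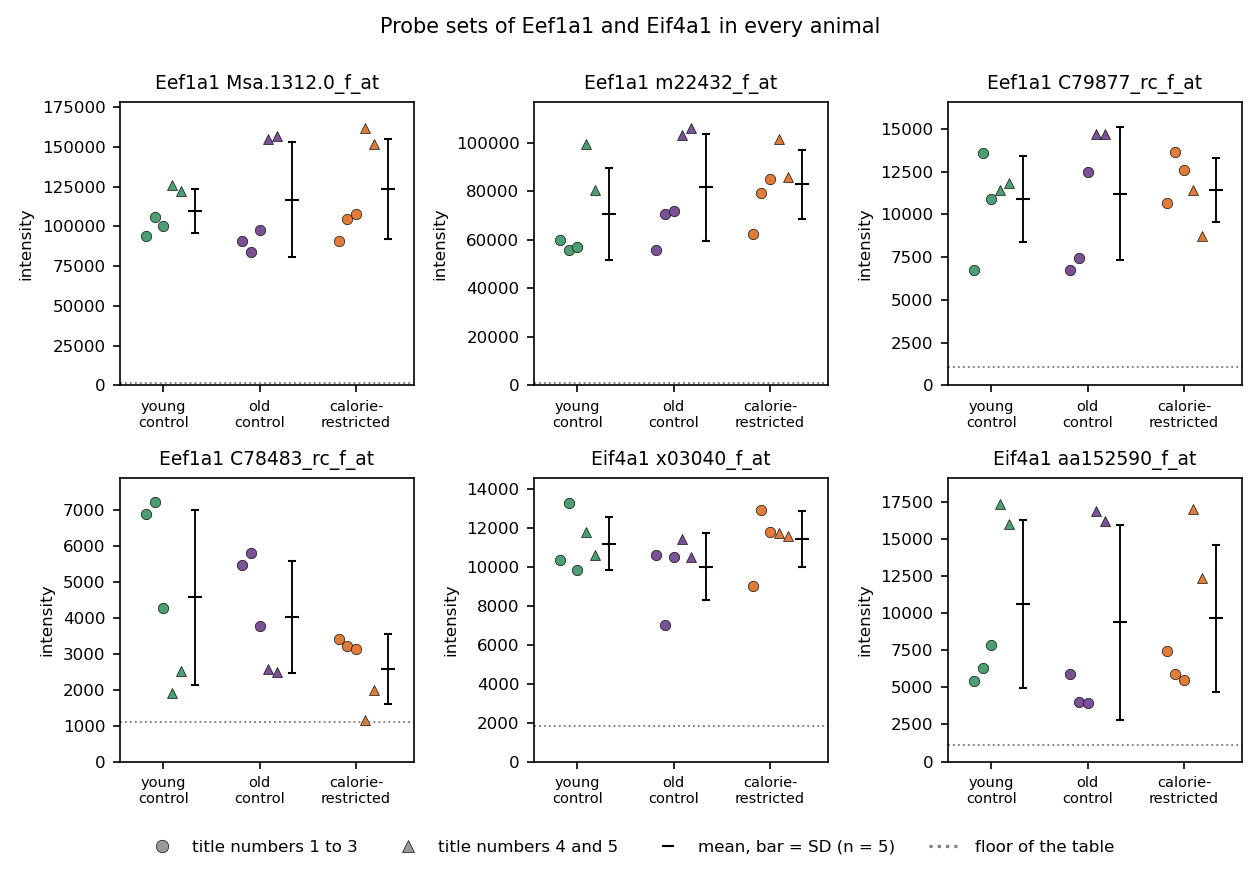
Scaled intensity of the 4 tested probe sets of Eef1a1 and the 2 of Eif4a1 in each of 15 animals (circles are title numbers 1 to 3, triangles 4 and 5; black bars are the mean and SD of 5; the dotted line is the floor). Numbers 4 and 5 lie above numbers 1 to 3 in every group for the brightest Eef1a1 probe set (upper left), m22432_f_at and aa152590_f_at and below them for C78483_rc_f_at.

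Termination and the mRNA tail were read by few probe sets. Etf1, the release factor that recognises stop codons, gave 0.16 ± 0.14 with age (adjusted p = 0.658) and -0.05 ± 0.14 with the diet (adjusted p = 0.892) for its brighter probe set, aa061574_g_at. The other probe set of that target, aa061574_at, had 1835, 1879, 2036, 2027 and 1992 in young controls, 1916, 2160, 2038, 2000 and 2106 in old controls, and 2563, 2103, 2615, 2371 and 2156 in restricted mice. It is the member whose restricted and young values did not overlap, with a difference of 0.27 ± 0.11 (adjusted p = 0.2) against 0.10 ± 0.14 for its partner. Gspt1, the GTPase that works with Etf1, was above the floor on 4 of 15 arrays and was not tested.

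Pabpc1, which coats the poly(A) tail, had 8335, 9751, 9070, 7570 and 8066 in young controls, 10592, 12765, 10022, 8669 and 9681 in old controls and 9005, 9169, 11619, 9555 and 8692 in restricted mice. Old controls 4 and 5 lay inside the young range and the other 3 above it. The difference was 0.27 ± 0.13 with age (adjusted p = 0.353) and -0.10 ± 0.13 with the diet (adjusted p = 0.778). Within the sets it was 0.29 and 0.23 with age, and the second probe set gave 0.24 ± 0.15 and -0.20 ± 0.15.

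For tRNA charging, 4 of 15 probe sets were tested. Yars, the tyrosyl-tRNA synthetase, had 1724, 1388, 895, 964 and 1045 in young controls, 2032, 2396, 1980, 1219 and 1596 in old controls and 1514, 1775, 1129, 1020 and 870 in restricted mice. Old controls were high in both number sets: 1980 to 2396 against 895 to 1775 in numbers 1 to 3, and 1219 and 1596 against 870 to 1045 in numbers 4 and 5. Over all numbers the groups overlapped. Its difference was 0.51 ± 0.20 with age (adjusted p = 0.225) and -0.47 ± 0.20 with the diet (adjusted p = 0.293), 0.62 and 0.34 within the number sets with age and -0.56 and -0.34 with the diet. Young controls were above the floor in 2 of 5 animals, so the log2 difference understates the spread in intensity. Restricted against young mice gave 0.04 ± 0.20.

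Qars, the glutaminyl-tRNA synthetase, had fitted differences of the opposite signs. Its intensities were 2312, 2263, 2397, 3410 and 3777 in young controls, 2007, 1269, 801, 3853 and 2366 in old controls and 3162, 3237, 2759, 2667 and 3031 in restricted mice. Old control 4 was the highest of all 15 animals and old controls 2 and 3 the lowest. The difference was -0.53 ± 0.27 with age (adjusted p = 0.383) and 0.63 ± 0.27 with the diet (adjusted p = 0.296). The diet difference was 1.11 in numbers 1 to 3 and -0.09 in numbers 4 and 5. Without old control 4 it was 0.88 with an adjusted p of 0.0495 (limma), in a fit that called 2.77% of all probe sets. Over 30 alternatives the adjusted p ran from 0.0173 to 0.965.

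Nars, the asparaginyl-tRNA synthetase, gave 0.15 ± 0.16 with age (adjusted p = 0.727) and -0.23 ± 0.16 with the diet (adjusted p = 0.536), which was -0.44 and 0.08 within the sets. Aars, the alanyl-tRNA synthetase, had 2341, 1542, 1637, 889 and 603 in young controls, 2219, 1750, 1502, 946 and 705 in old controls and 934, 899, 610, 650 and 1105 in restricted mice. The diet difference of -0.42 ± 0.22 (adjusted p = 0.399) was -0.71 in numbers 1 to 3 and 0.00 in numbers 4 and 5, where all animals of both groups were at or near the floor of 1103. With age it was -0.00 ± 0.22 (adjusted p = 0.998).

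Several synthetase genes are known targets of ATF4, the transcription factor of the amino acid response, and matches to the letters of its binding element are shown here as context for the charging genes. The letters TGATGNAAN were searched on both strands, from 250 bases before to 50 after each RefSeq start (GRCm38.p6). They occurred in 4.5% of all 27025 genes with a promoter in the table. The matches are examples, so no count over a class is given. Those in Yars, Tars and Eif2s3x with 10 bases on each side are printed 5′ to 3′ on the strand that carries the element, which is in capitals:
Yars, chr4:129189896-129189924, same strand, position 4: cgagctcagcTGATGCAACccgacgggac
Tars, chr15:11399656-11399684, opposite strand, 16 bases before the start: gctaaccagcTGATGCAACgggactcctg
Eif2s3x, chrX:94212730-94212758, opposite strand, 97 bases before the start: ggcatagaccTGATGAAAAtgatggcgaa

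A match is only a stretch of letters, shows no binding and is not set against the values. Tars was above the floor on 2 of 15 arrays and was not tested. Among other genes of the ATF4 response, 0 of 7 tested probe sets (of 21 on the arrays) passed in any comparison. Of all tested probe sets 3.33% passed with age, 2.51% with the diet and 3.78% for restricted against young mice. With so few probe sets a count of 0 cannot be told from these shares. The median of these 7 was -0.00 with age and 0.10 with the diet. Atf4 itself gave -0.04 ± 0.16 and 0.28 ± 0.16 (adjusted p = 0.939 and 0.442).

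The other genes of the pathway came from lists written with earlier results of these data known. Of the regulators 9 of 24 probe sets were tested, those of Ddit4, Dohh, Eif4ebp1, Eif4ebp2, Fkbp1a, Ppp1ca and Ppp1r15b, and 0 passed in any comparison, beside the 3.33%, 2.51% and 3.78% of all probe sets; no kinase of eIF2 or eEF2 was among those tested. Their medians were 0.09 with age and -0.14 with the diet. Eif4ebp1, which holds back the cap-binding protein, gave 0.35 ± 0.17 with age (adjusted p = 0.363) and -0.30 ± 0.17 with the diet (adjusted p = 0.456). Of the synthetase partners and mitochondrial translation genes 5 of 11 probe sets were tested and 0 passed, with medians of -0.08 and -0.05. Of these Eprs and Farsb are cytosolic synthetases, with diet differences of -0.05 ± 0.15 and 0.39 ± 0.28. The mRNAs for the proteins of the ribosome, which the factors work on, had medians of 0.10 with age, 0.18 with the diet and 0.28 for restricted against young mice. These are over 46 tested probe sets, beside -0.04, 0.03 and -0.01 for all tested probe sets. Of the 46 ribosomal probe sets only 1 passed with age, that of Rpl8 at 0.51 (adjusted p = 0.0432, limma), beside 3.33% of all tested probe sets. With the diet 0 passed beside 2.51%, and 0 for restricted against young mice beside 3.78%. The members' medians were -0.00, 0.06 and 0.10 in the same order.

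The members that were not tested numbered 37 probe sets, of which 26 were above the floor on 0 of 15 arrays and 11 on 1 to 4. They leave 22 genes without a test: Eif1a, Eif2b5, Eif2d, Eif3d, Eif3i, Eif3j1, Eif4e, Eif4h, Eif5, Eif6, Eef1a2, Gspt1, Pabpc2, Pabpc4 and the synthetases Cars, Hars, Kars, Mars1, Rars, Sars, Tars and Wars. For these the arrays set no level, and a difference of any size below the floor could not be seen. Of the tested members 33 were above the floor on all 15 arrays. Of the 9 genes with several tested probe sets, Eef1a1 and Eif1b gave opposite signs with age, and Eef1a1 and Etf1 with the diet.

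The tubule markers on the arrays (Slc34a1, Kap, Umod, Slc12a1, Slc12a3 and Aqp1) were present: 8 of 8 probe sets were tested, with 0 called in any comparison, and their summed intensity ranged from 257368 to 466406 in old controls and from 291817 to 497443 in young ones. Of the markers of B and plasma cells, Igha, Ighm and Jchain changed with the groups. These were 5 of 7 tested probe sets, which rose with age and fell with the diet. Of all probe sets, 3.33% and 2.51% were called in these comparisons. Cd79b and Xbp1 were called in neither (adjusted p = 0.389 and 0.716 with age, 0.261 and 0.531 with the diet, limma). The summed intensity of all 7 was 9228 to 17061 in young controls, 92728 to 194757 in old controls and 15495 to 37160 in restricted mice. Macrophage and leukocyte markers rose in 6 of 8 with age and fell in 4 of 8 with the diet, with sums of 20507 to 25031, 41249 to 53124 and 24714 to 30731. Their part in the members' differences was not tested. In whole tissue a change in the share of a cell type and a change in its RNA per cell cannot be told apart. Markers of fat, adrenal and muscle (Adipoq, Fabp4, Nr5a1, Ckm and Mb) had 0 calls in 6 tested probe sets.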

How the data were processed

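Expression was measured in total RNA of kidney on a pair of Affymetrix arrays (letters A and B in the titles) in 30 samples, 5 title numbers in each of 3 groups. As deposited, each probe set has an intensity given as a whole number. Negative values made up 20.6% to 26.6% of an array of type A and 29.2% to 35.9% of one of type B. The sources used here do not give the authors' software or background step; arrays of a table already had nearly equal trimmed means, so they had been scaled before deposit.

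Here each array was scaled to the common 2%-trimmed mean of its table (factors 0.994 to 1.01), floored at the root mean square of the table's negative values (1103 and 1823) and put on a log2 scale. Probe sets above the floor on at least 5 of 15 arrays were tested: 33.5% to 37.5% of an array's values lay above the floor on type A and 23.8% to 27.5% on type B. Values near the floor understate differences. The number of arrays also limits the precision. Both arrays of a title number were stacked and the 3 groups fitted together with limma 3.58.1 in R 4.3.3, and p-values were adjusted (Benjamini-Hochberg, threshold 0.05) across the tables together. The script was tested on simulated data. Class medians carry no test.

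Control probe sets (76 per table) were left out. Of 85 tested probe sets of targets with several rows of suffix i, f, s or r in the second table, the young values correlated with the old at -0.199, where restricted and old gave 0.945, so rows appear exchanged there and those young values were set missing. The design as written took all rows of these suffixes; single rows correlated at 0.934 and were kept after this was seen. No member is in the exchanged class. All 8 tested member probe sets of the second table carry the suffix f or s, however. They are those of Eef2, Eif5a, Eif4a2 and Pabpc1, the brightest of Eef1a1 and Eif4a1, and the dimmer of Eif1b. The design as written would have left them no comparison with young controls.

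Title numbers were taken to pair 2 groups only if every same-number correlation of deviations exceeded 0.1. All 5 did between young and old controls (0.22 to 0.50), where blocking on the number left 0 of 43 members called, beside 3.85% of all probe sets. The age standard errors, intervals and adjusted p in the text come from the fit without this block, so they leave that pairing out. Over all 3 comparisons 13 of 15 did, and the lowest, -0.01, was between old and restricted mice. Both comparisons of restricted mice were therefore not taken as paired. Symbols came from the platform annotation, updated by gene number with RefSeq (GRCm38.p6), which also gave the promoters; 1 promoter with a match is not reported here. Members and lists were chosen with earlier results of these data known. Named in full were members past the threshold, and up to 4 of each class with the smallest unadjusted p with age and with the diet; values by animal were set for these and for a few central factors. A gene's value is that of its brightest probe set, others being given where they disagree. Alternatives covered scaling, floor, filter, transform, variance moderation, block, number sets and each animal left out.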

Additional observations from a re-analysis of the deposited data

Results flagged for a closer look

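Among 60 groups of 5 animals (20 named members in 3 groups each), 6 held 1 animal whose gap to the nearest other exceeded Dixon's 95% critical share of the group's range on the floored log2 scale; chance gives about 1 in 20. For Aars and Eif3a the other 4 animals were all at the floor, so the share is 1 by construction, and for Eif3m 3 of them were; the intensities below are unfloored. Aars in restricted animal 5 was 1105, where the others had 610 to 934, all under the floor. Eif5a in restricted animal 5 was 3072, where the others had 6537 to 7619. Eif3a in old control 3 was 1386, where the others had 836 to 1048, under the floor. Eif3c in restricted animal 4 was 3755, where the others had 4740 to 4881. Eif3m in old control 1 was 1754, where the others had -146 to 1228. Eif4a1 (x03040_f_at) in old control 2 was 7029, where the others had 10493 to 11438.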

How the results depend on the processing

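With age 0 members passed under every alternative run. Of all probe sets 5.7% were called with age when the number set was a term, 3.85% with the replicate block and 1.92% in numbers 1 to 3 alone. With the diet the count of 0 became 1 with the title number as a replicate block (Eef1a1, C78483_rc_f_at, adjusted p = 0.039, which ran from 0.039 to 1 over its alternatives), 1 with the number set as a term (Eif3m) and 3 in numbers 1 to 3 alone (Qars 1.11, Eif3a 0.65 and Eif4g2 0.73). Leaving out 1 animal in turn gave 0 to 1. The 1 was Qars without old control 4, in a fit that called 2.77% of all probe sets. Restricted against young mice gave 1 with the replicate block (C78483_rc_f_at). This comparison gave 2 when the fit held a term for the number sets (C78483_rc_f_at and Eef2). Numbers 1 to 3 alone gave 1, the dimmer Eif2s3x probe set aa274159_at (-0.73). The brighter probe set of that target, aa274159_g_at, had -0.03 in these animals. The replicate block called 3.51% of all probe sets with the diet and 5.41% for restricted against young mice, and numbers 1 to 3 alone 5.48% and 5.41%. The fit with a term for the number sets called 5.02% and 7.65%. The block changed no other call.

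The elongation median with age, 0.05, became 0.24 after quantile normalization, -0.14 in numbers 1 to 3 and 0.23 in numbers 4 and 5; with the diet it ran from -0.08 to 0.21 over the animals left out. The initiation median with the diet became 0.00 with no filter on low values, and for restricted against young mice 0.14 with all young values of those suffixes missing, which was added once the data had been seen. The charging median with the diet became 0.01 with the floor doubled, 0.00 with no filter and -0.04 in numbers 4 and 5. Why was not tested, beyond fewer animals or other probe sets entering. Qars with the diet turned to -0.09 in numbers 4 and 5. Of 1183 other values of 40 named differences, 1177 kept their call, 5 passed and 1 turned sign; signs were compared only where the unadjusted p was under 0.05, and 20 differed in all. Signal limits what can be read of members near the floor and of the 37 not tested.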
